A study of Homo sapiens with 9 samples.

Results

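The keratins described here are 8 genes, KRT7, KRT8, KRT10, KRT17, KRT18, KRT19, KRT80 and KRT81, out of 36343 genes in the count table of SKOV-3 cells grown on gels of different stiffness. The list was selected on these same data: KRT7 and KRT17 were already known to be among the genes lower on the 0.5 kPa gel, and the other 6 were added with results in view. The levels of the 8 genes are therefore given as a description, and nothing is supported with them. SKOV-3 is an established line of epithelial ovarian cancer, and the cells were kept for 3 days on hydrogels of 0.5 kPa, 4 kPa or 25 kPa, with 3 libraries of poly(A) RNA per gel. All groups share the line and the culture time, the labels name no drug or genetic change, and a single line on gel-coated dishes is the whole model. The 3 comparisons were 0.5 against 25 kPa, 0.5 against 4 kPa and 4 against 25 kPa, and each fold change is the softer gel over the stiffer one.

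Keratins are the intermediate filament proteins of epithelial cells. A filament is built from pairs of an acidic (type I) and a basic (type II) keratin, so that neither type polymerizes alone, and the network is tied to neighboring cells at desmosomes and to the matrix at hemidesmosomes. Simple epithelia use mainly KRT8 with KRT18, joined by KRT7 and KRT19, whereas KRT5 with KRT14 form the network of the basal layer of stratified epithelia. Of the 8 genes, 4 are type II (KRT7, KRT8, KRT80 and KRT81) and 4 are type I (KRT10, KRT17, KRT18 and KRT19). KRT7, KRT8, KRT18, KRT80 and KRT81 lie in the type II cluster of chromosome 12, where KRT18 is the only type I gene, and KRT10, KRT17 and KRT19 lie in the type I cluster of chromosome 17.

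The members are related in sequence, and this bears on how their reads can be assigned. The end of the coiled-coil rod is the most conserved stretch of a keratin, and it was located in the longest open reading frame of each gene's most abundant transcript by the pattern of a tyrosine, any 2 residues, a pair of leucines and an acidic residue. The 27 bases at that place are shown for the 7 members in which the pattern was found, from GENCODE v29 transcripts (GRCh38), with capitals at the 15 bases that all 7 share. KRT80 did not match, which says only that these letters are not in its reading frame.
KRT7: ACCTACcGcaagCTGCTgGAgGgcgag
KRT8: ACCTACaGgaagCTGCTgGAgGgcgag
KRT81: ACCTACaGgcgcCTGCTgGAgGgcgag
KRT17: ACCTACcGccgcCTGCTgGAgGgagag
KRT10: ACCTACcGcagcCTGCTaGAaGgagag
KRT19: ACCTACcGcagcCTGCTcGAgGgacag
KRT18: ACCTACcGccgcCTGCTgGAaGatggc
Against KRT8, the stretch of KRT7 differed at 2 bases and that of KRT81 at 3, whereas the type I genes differed at 6 (KRT17), 7 (KRT10 and KRT19) and 10 (KRT18).

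Over whole transcripts, the members differed widely in how much they share with other genes. Of all windows of 50 bases in the main transcript, 44.6% of KRT81, 47.6% of KRT18 and 41.3% of KRT8 also occurred in another gene, against 17.4% for KRT17, 10.8% for KRT7, 1.79% for KRT19, 0.434% for KRT10 and 0.420% for KRT80. At 150 bases, 25.6% of the windows of KRT81 were still found in KRT86, a hair keratin whose annotated span covers all of KRT81 on the opposite strand, 10.97% of those of KRT18 in KRT8 and 4.80% of those of KRT7 in KRT7-AS, and the other 5 members had 0 shared windows. Both strands were searched for these windows. KRT8 and KRT18 overlap by 1084 bases on opposite strands, and without a stated strand setting reads from there cannot be told apart. KRT86 held 3.36 to 4.33% as many reads as KRT81 in every library. The counted pseudogenes of KRT8 together held at most 1.51% of the count of KRT8, and those of KRT18 at most 1.14% of the count of KRT18. The 2 pseudogene rows of KRT17 held at most 0.190% of its count. Those 2 rows are KRT17P4 and KRT17P8. The 50-base windows of KRT17 were instead shared with KRT17P1 (10.2%), KRT17P2 (9.54%), KRT17P3 (8.65%) and KRT17P6 (5.18%), which have no counts here. The 0.190% therefore says nothing of reads shared with these. KRT8P5 (4.70% of the 50-base windows of KRT8), KRT8P32 (4.40%) and KRT18P10 (6.08% of those of KRT18) have no counts here either. The 1.51% and 1.14% leave them out. No source used here states how reads with several matches were counted, and the KRT81, KRT8, KRT18 and KRT17 counts carry that uncertainty.

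Libraries held between 19609740 and 21033433 counts on genes, so a floor of 3 counts corresponded to 0.144 to 0.152 CPM (counts relative to the TMM-scaled library size). The 8 keratins took 0.149 to 0.172% of counts on 0.5 kPa, 0.212 to 0.239% on 4 kPa and 0.222 to 0.256% on 25 kPa. Replicate 3 of 0.5 kPa and replicate 3 of 4 kPa stood apart from the others of their gel: chi-square per degree of freedom was 12.8 and 15.9 against the other 0.5 kPa libraries, which differed from each other by 3.15, and 20.9 and 23.9 against the other 4 kPa libraries, which differed by 3.02. On 25 kPa, replicate 2 gave 11.4 and 6.13 against the others, which differed by 3.68, and without it the KRT7, KRT17 and KRT80 log2 fold changes of 0.5 against 25 kPa were -1.39, -1.97 and -0.81. Nothing in the labels says whether replicates were separate cultures, so each p-value measures only the spread between these libraries. Of the markers of ovarian carcinoma, ERBB2 was at 2921 to 4293 CPM, PAX8 at 184 to 231 CPM and EPCAM at 35.0 to 46.8 CPM, whereas MSLN was at 4.66 to 7.54 CPM, WT1 at 0.603 to 1.30 CPM and MUC16 at 0.147 to 0.958 CPM. FOLR1 was at 23.9 to 71.2 CPM, CLDN4 at 17.4 to 29.4 CPM and CDH1 at 11.8 to 17.8 CPM. The 9 markers of that list summed to 4224 to 4592 CPM on 0.5 kPa. The sums were 3466 to 4299 CPM on 4 kPa and 3267 to 3528 CPM on 25 kPa. Most of each sum was ERBB2 (mean 3571 CPM over the 9 libraries). On 0.5 against 25 kPa, 1 of the 9 markers was called higher and 1 lower (edgeR, adjusted p under 0.05). Over all genes, 3% were called higher and 3.54% lower. The leukocyte marker CD3E was at 0 in all 9 libraries. Summed levels of a list of 6 markers of MCF-7, a breast cancer line, were 308 to 336 CPM on 0.5 kPa. They were 245 to 274 CPM on 4 kPa and 216 to 234 CPM on 25 kPa. Nearly all came from CA12 (149 to 243 CPM) and ESR1 (60.3 to 94.9 CPM). GREB1 was at 2.76 to 9.29 CPM and PGR at 0.291 to 1.87 CPM, with GATA3 and TFF1 at no more than 5 and 2 counts. On 0.5 against 25 kPa, 3 of the 4 MCF-7 markers tested were called higher and 0 lower (edgeR, adjusted p under 0.05). The shares over all genes are the 3% and 3.54% above. The part of these shifts in the keratin values was not tested.

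Of the 8 members, 3 were called lower (edgeR, adjusted p under 0.05) on 0.5 kPa than on 25 kPa and 0 were called higher. Over all 16335 genes tested, 3.54% were called lower and 3% higher in that comparison. The same 3 genes, KRT7, KRT17 and KRT80, were called lower on 0.5 kPa than on 4 kPa, where the background was 1.07% lower and 0.882% higher. Between 4 and 25 kPa, 0 members were called in either direction, against a background of 0.324% lower and 0.373% higher. Because the list was chosen with these comparisons known, the counts are read no further. All 8 members passed the filter on low counts.

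**Figure D1:**
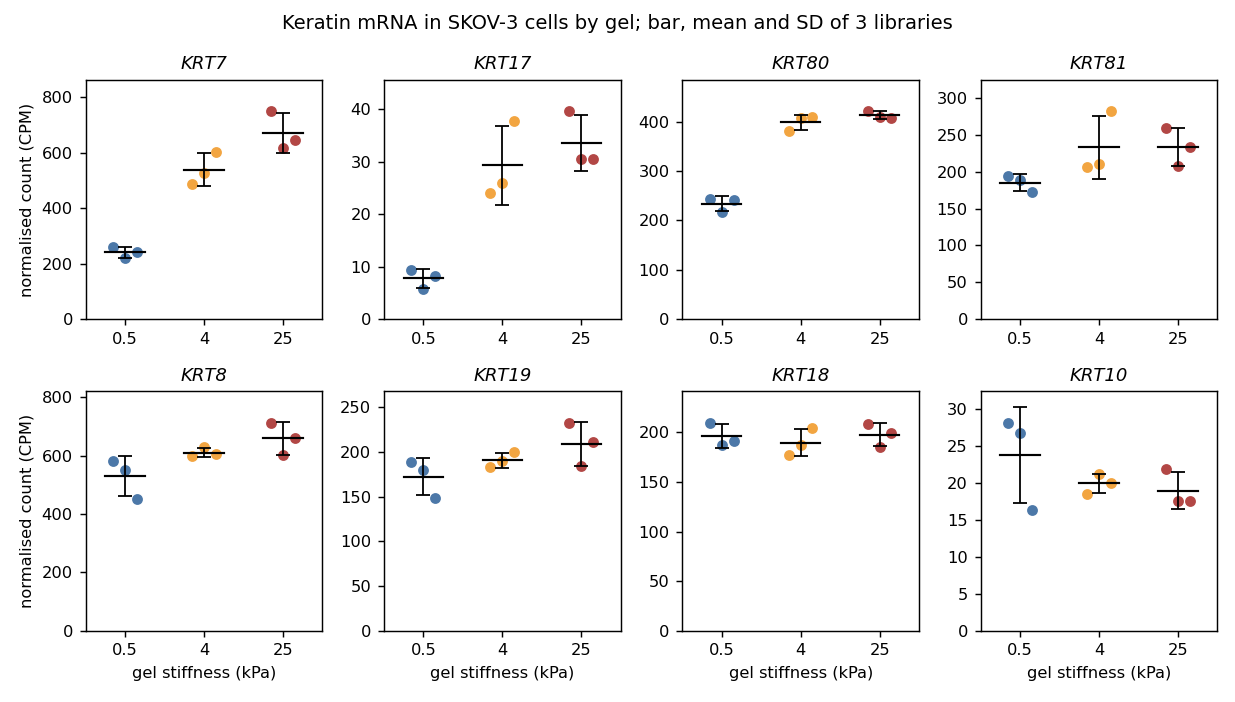
Normalised counts (CPM, y axis from 0) of the 8 keratins against gel stiffness (x axis), with 1 point per library and a bar for the mean and SD of 3 libraries. KRT7, KRT17 and KRT80 on 0.5 kPa lie below every library of the other gels, at means of 242, 7.75 and 234 CPM, while the gels overlap for KRT18 and KRT10.

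KRT7 is the type II keratin of simple and ductal epithelia and a usual marker of ovarian carcinoma (ENSG00000135480, hg38, chromosome 12 from 52232520 to 52252186, plus strand). It was at 261, 222 and 242 CPM on 0.5 kPa, at 488, 527 and 604 CPM on 4 kPa and at 751, 616 and 646 CPM on 25 kPa. In CPM the 3 gels did not overlap, and each step up in stiffness gave a higher range. In FPKM, which use library totals without the TMM scaling, 4 and 25 kPa overlapped. There replicate 3 of 4 kPa (149.1) was above replicate 3 of 25 kPa (148.4). The fitted level was 2.77-fold lower on 0.5 than on 25 kPa (log2 fold change -1.47, standard error 0.10) and 2.23-fold lower than on 4 kPa (-1.16, standard error 0.10). Between 4 and 25 kPa the log2 fold change was -0.31 (standard error 0.10), which did not pass the test. In bulk RNA, fewer cells that express a gene and less RNA per cell cannot be told apart.

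KRT17 is a type I keratin that epithelia switch on during stress and wound repair (ENSG00000128422, chromosome 17 from 41619437 to 41624842, minus strand). It showed the largest difference of the 8 members and, on 0.5 kPa, the lowest counts, with 192, 113 and 171 reads on 0.5 kPa, 482, 527 and 774 reads on 4 kPa and 789, 600 and 628 reads on 25 kPa. In normalised counts these were 9.34, 5.73 and 8.19 CPM on 0.5 kPa, 24.1, 25.9 and 37.8 CPM on 4 kPa and 39.7, 30.5 and 30.4 CPM on 25 kPa. Every 0.5 kPa library was below every library of both other gels, and 4 and 25 kPa overlapped. The log2 fold change was -2.11 (standard error 0.20) against 25 kPa and -1.91 (standard error 0.20) against 4 kPa, and -0.20 (standard error 0.18) between 4 and 25 kPa.

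KRT80 is a type II keratin found near desmosomes and at the cell margin of epithelia (ENSG00000167767, chromosome 12 from 52168996 to 52192000, minus strand). It was at 243, 216 and 241 CPM on 0.5 kPa, at 380, 406 and 408 CPM on 4 kPa and at 421, 409 and 406 CPM on 25 kPa. Its libraries on 0.5 kPa lay apart from those of the other gels, which overlapped. The log2 fold change was -0.82 (standard error 0.07) against 25 kPa and -0.77 (standard error 0.07) against 4 kPa, and -0.05 (standard error 0.07) between 4 and 25 kPa. On the fitted log2 scale, the 4 kPa level stood 78.6% of the way from 0.5 to 25 kPa for KRT7, 90.7% for KRT17 and 93.9% for KRT80. Without both replicate 3 libraries that stood apart, the 0.5 against 25 kPa log2 fold changes were -1.46 for KRT7, -2.14 for KRT17 and -0.84 for KRT80.

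**Figure D2:**
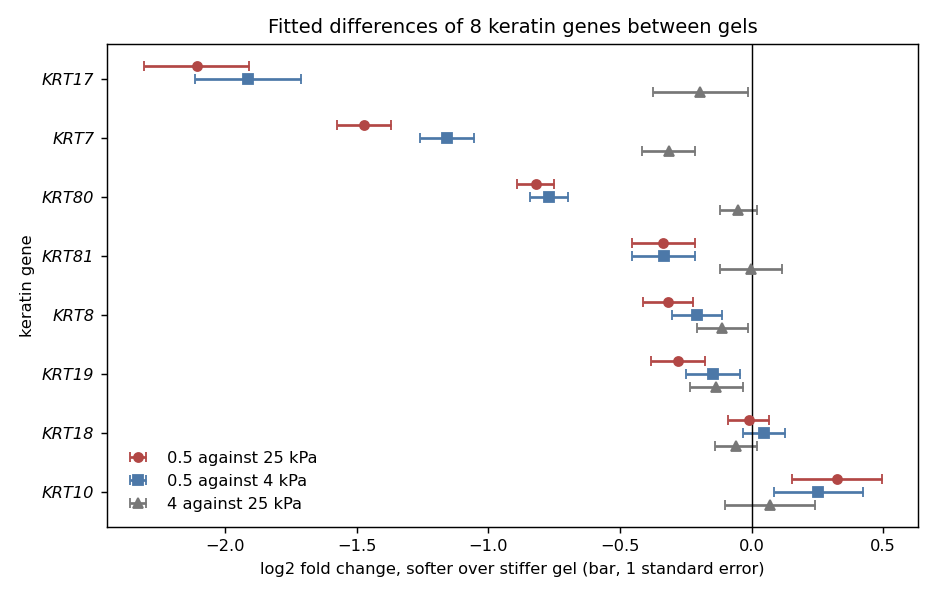
Fitted log2 fold change (x axis, softer over stiffer gel) of each keratin (y axis) with 1 standard error, for 0.5 against 25 kPa (circles), 0.5 against 4 kPa (squares) and 4 against 25 kPa (triangles). KRT17, KRT7 and KRT80 have values of -2.11, -1.47 and -0.82 for 0.5 against 25 kPa, and the triangles of all members lie between -0.31 and 0.07.

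The remaining type II members, KRT8 and KRT81, moved less. KRT8, the main type II keratin of simple epithelia (ENSG00000170421, chromosome 12 from 52897187 to 52949954, minus strand), was at 583, 552 and 452 CPM on 0.5 kPa, at 599, 628 and 604 CPM on 4 kPa and at 713, 603 and 662 CPM on 25 kPa. Every 0.5 kPa library was below the others, replicate 3 by the widest margin, but the log2 fold change against 25 kPa of -0.32 (standard error 0.10) was not called. Without both replicate 3 libraries it was -0.21. KRT81, a keratin of the hair cortex that some carcinoma lines express (ENSG00000205426, chromosome 12 from 52285913 to 52291534, minus strand), was at 194, 188 and 173 CPM on 0.5 kPa, at 207, 210 and 282 CPM on 4 kPa and at 260, 208 and 234 CPM on 25 kPa. Its 0.5 kPa libraries lay just below the rest, and the log2 fold changes of -0.34 against 25 kPa and -0.33 against 4 kPa (standard error 0.12 each) were not called. Without replicate 3 of 4 kPa, its highest library, the value against 4 kPa was -0.17.

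Among the type I members, KRT18 and KRT19 pair with KRT8 and KRT7 in simple epithelia. KRT19, the smallest keratin (ENSG00000171345, chromosome 17 from 41523617 to 41528308, minus strand), was at 188, 180 and 149 CPM on 0.5 kPa, at 183, 190 and 200 CPM on 4 kPa and at 233, 184 and 211 CPM on 25 kPa, so that the gels overlapped. Its log2 fold change against 25 kPa was -0.28 (standard error 0.10), and -0.17 without both replicate 3 libraries. KRT18 (ENSG00000111057, chromosome 12 from 52948871 to 52952901, plus strand), the usual partner of KRT8, was the most even of the 8. It was at 210, 187 and 191 CPM on 0.5 kPa, at 177, 187 and 204 CPM on 4 kPa and at 208, 185 and 199 CPM on 25 kPa, with a log2 fold change of -0.01 (standard error 0.08) between 0.5 and 25 kPa.

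KRT10, the type I keratin of differentiating epidermis (ENSG00000186395, chromosome 17 from 40818117 to 40822595, minus strand), was the only member with a positive log2 fold change against 25 kPa, 0.32 (standard error 0.17), and it was not called. It was at 28.2, 26.9 and 16.4 CPM on 0.5 kPa, at 18.6, 21.3 and 20.04 CPM on 4 kPa and at 21.9, 17.5 and 17.6 CPM on 25 kPa. A single library decided this result: replicate 3 of 0.5 kPa was the lowest of all 9, and the other 0.5 kPa libraries were the highest. Without that library the log2 fold change was 0.54, with adjusted p = 0.018 in edgeR. Against 4 kPa it was then 0.46 and not called (adjusted p = 0.066 in edgeR). Without replicate 1 or 2 of 0.5 kPa instead, the values against 25 kPa were 0.18 and 0.23 (adjusted p = 0.60 and 0.56 in edgeR). TMEM99 overlaps KRT10 on the opposite strand with 410 to 545 reads, and without a stated strand setting the reads of both cannot be told apart.

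Replicate 3 of 0.5 kPa was the lowest library of its gel for KRT8, KRT10, KRT19 and KRT81, and also for KRT5 and KRT14, whereas for KRT7, KRT17 and KRT80 the lowest was replicate 2. Over the 9 libraries, the log2 CPM values of KRT7, KRT17 and KRT80 ran closely together (Pearson r of 0.982 to 0.988), as did those of KRT8 and KRT19 (0.958), while KRT8 and KRT18 gave 0.318. These are descriptions over 9 libraries in 3 gels. Among 11242 genes averaging 5 CPM or more, those most like KRT7 were TAGLN (an actin-binding protein, r = 0.994), TRIM29 (0.993) and RBM22 (0.988). For KRT17 they were TAGLN (0.989), KRT7 (0.988) and KRT80 (0.986), and for KRT80 they were INPPL1 (0.993), TRIM29 (0.992) and MB21D2 (0.991). The top genes for KRT8 were PLIN3 (0.990), MVD (0.989) and NCLN (0.988), and those for KRT19 were SNX17 (0.991), PRDX4 (0.991) and SLC39A4 (0.985). KRT81 ran with CPTP (0.992), SIRT7 (0.986) and ZNF787 (0.975), KRT10 with S100A4 (0.986), COX8A (0.985) and NDUFS5 (0.984), and KRT18 with ATP5F1D (0.969), FXYD5 (0.952) and RAC3 (0.949).

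Levels of different genes can be set side by side only per length, as FPKM (fragments scaled by gene length and library total). On 0.5 kPa, KRT81 was highest at 96.6 ± 5.4 FPKM, followed by KRT8 at 77.3 ± 9.6, KRT19 at 74.4 ± 8.6, KRT18 at 61.3 ± 3.6, KRT7 at 59.5 ± 4.8 and KRT80 at 54.1 ± 3.5 FPKM (SD, n = 3). KRT10 and KRT17 followed at 11.2 ± 3.0 and 3.08 ± 0.73 FPKM. KRT81 lay above the rest and KRT10 and KRT17 below, but from KRT8 down to KRT80 each gene overlapped the next in this order. On 25 kPa, KRT7 was highest at 160 ± 15 FPKM, before KRT81 at 118 ± 12, KRT8 at 93.6 ± 6.8, KRT80 at 92.6 ± 0.96, KRT19 at 87.5 ± 9.3, KRT18 at 60.0 ± 3.0, KRT17 at 12.9 ± 1.9 and KRT10 at 8.66 ± 1.04 FPKM. There KRT8, KRT80 and KRT19 overlapped, and every other gene lay apart from its neighbors in the order. On 4 kPa, KRT7 was at 133 ± 14 and KRT81 at 122 ± 22 FPKM, which overlapped.

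KRT7 took 13.6 ± 1.1% of the summed FPKM of the 8 genes on 0.5 kPa, 22.1 ± 0.59% on 4 kPa and 25.2 ± 0.62% on 25 kPa. From summed transcript FPKM the KRT7 shares were 10.6 ± 4.5% on 0.5 kPa, 11.004 ± 6.7% on 4 kPa and 17.6 ± 1.4% on 25 kPa. KRT18 took 14.0 ± 0.61% on 0.5 kPa, 9.92 ± 0.13% on 4 kPa and 9.48 ± 0.30% on 25 kPa, at nearly even levels of its own. KRT5, a type II gene outside the 8, is not in these shares or in the sums that follow. The type I sum over the type II sum of the members was 0.521 ± 0.021 on 0.5 kPa. It was 0.373 ± 0.008 on 4 kPa and 0.364 ± 0.007 on 25 kPa. The 0.5 kPa libraries did not overlap the others. From transcripts they did, at 0.507 to 0.622 on 0.5 kPa and 0.382 to 0.524 on 4 kPa. KRT8 over KRT18 was 1.26 ± 0.14 on 0.5 kPa, 1.51 ± 0.11 on 4 kPa and 1.56 ± 0.04 on 25 kPa. The 0.5 kPa libraries lay below the others by a narrow margin (at most 1.38, against at least 1.39 on 4 kPa). From transcripts this ratio was 1.61 to 2.38 on 0.5 kPa, 2.49 to 3.59 on 4 kPa and 1.86 to 2.74 on 25 kPa. There 0.5 and 25 kPa overlapped. The table's FPKM divide by a gene length that for most members exceeds the main transcript: 6883 against 1687 bases for KRT8, 4094 against 1754 for KRT7, 3219 against 1562 for KRT18, 2538 against 1517 for KRT17 and 2337 against 1390 for KRT19. For KRT80 they are 4351 and 3859, for KRT10 2145 and 2124, and for KRT81 1929 both ways. The order of levels, the shares and the ratios all depend on the length used. In the table of transcripts KRT8 has the largest sum of the 8 genes in all 9 libraries, at 211 to 324 FPKM.

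**Figure D3:**
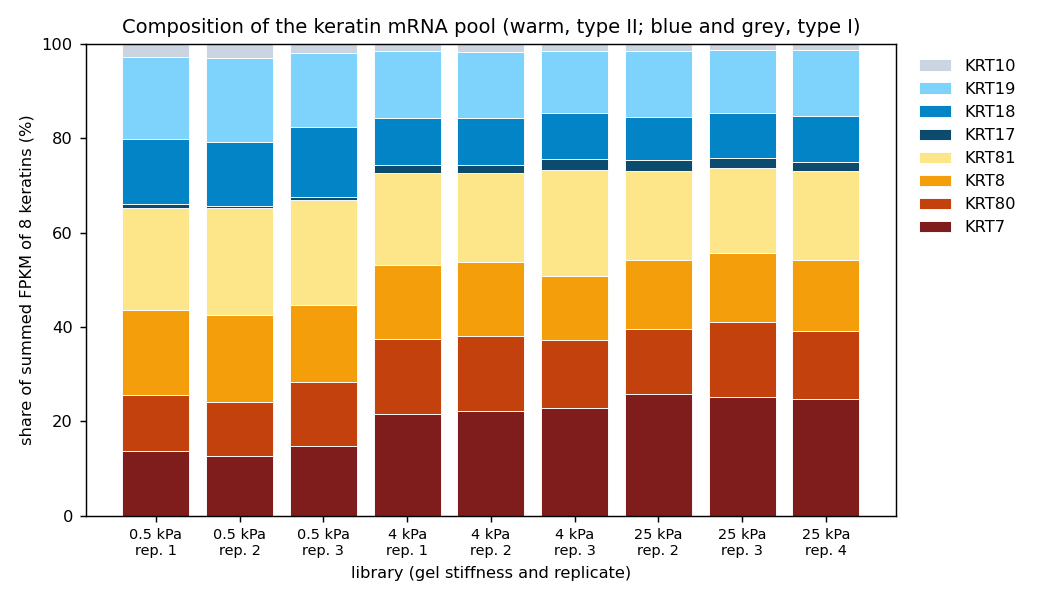
Share of the summed FPKM of the 8 keratins (y axis, percent, from 0) in each of the 9 libraries (x axis, gel stiffness and replicate), with type II genes in warm colors at the bottom and type I genes in blue and grey above. KRT7, the bottom block, takes 13.6% on average on 0.5 kPa and 25.2% on 25 kPa.

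Transcript estimates were much less even than gene counts. The transcript with the highest mean made up 95.4 to 99.8% of the summed level of KRT19 and all of that of KRT81, but 35.8 to 94.2% of KRT7, 65.7 to 86.6% of KRT8, 72.6 to 89.6% of KRT18, 63.7 to 95.5% of KRT17, 69.96 to 80.3% of KRT10 and 39.8 to 63.7% of KRT80. The main KRT7 transcript was at 123, 38.5 and 62.2 FPKM on 0.5 kPa, at 9.16, 104 and 141 FPKM on 4 kPa and at 195, 125 and 179 FPKM on 25 kPa. Replicate 1 of 4 kPa, the lowest of all 9 there, was not low for KRT7 at the gene level (121 FPKM). For KRT80, ENST00000313234 was the second transcript, at 32.9 to 50.1% of the sum. With transcript counts summed per gene in place of gene counts, only KRT17 was called lower on 0.5 kPa. The KRT7 log2 fold changes were then -1.19 against 25 kPa and -0.24 against 4 kPa, and those of KRT80 were -1.20 and -0.78, as large as with gene counts or larger. Over all genes that setting called 43 higher and 42 lower on 0.5 against 25 kPa.

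**Figure D4:**
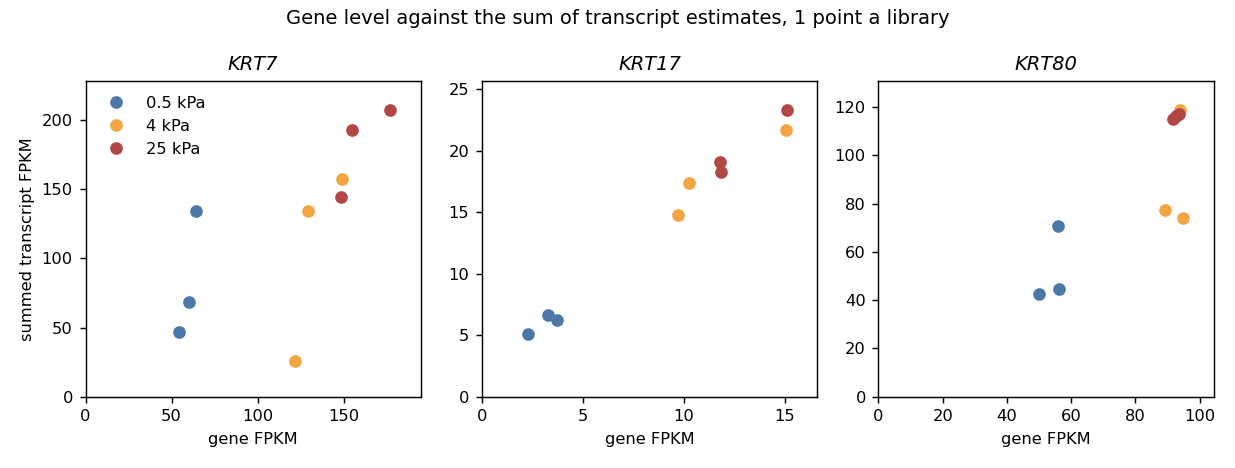
Summed transcript FPKM (y axis) against gene FPKM (x axis) for KRT7, KRT17 and KRT80, with 1 point per library colored by gel. KRT17 lies near a line, whereas for KRT7 a 4 kPa library of 121 gene FPKM has a summed transcript level of 25.6.

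Outside the 8 members, the table held 37 other keratin genes, 74 keratin pseudogenes and 1 antisense gene, and of these 5, 4 and 1 passed the count filter. KRT5, the type II partner of KRT14 in basal cells, was at 374, 345 and 210 CPM on 0.5 kPa, at 485, 494 and 323 CPM on 4 kPa and at 537, 521 and 510 CPM on 25 kPa. Its 25 kPa libraries lay above all others, with replicate 3 lowest on both softer gels. It was lower on 0.5 than on 25 kPa (log2 fold change -0.76, standard error 0.19, adjusted p = 0.036 in edgeR), and the call was lost without replicate 2 or 3 of 0.5 kPa or any 25 kPa library (adjusted p up to 0.11), in all 3 limma fits (0.074 to 0.20) and with transcript counts (0.39). Against 4 kPa it had adjusted p = 0.27 in edgeR (-0.49 on the log2 scale), and 0.046 without replicate 3 of 4 kPa.

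KRT14, the type I keratin of basal cells, had few reads, 24, 29 and 15 on 0.5 kPa, 62, 70 and 64 on 4 kPa and 106, 104 and 111 on 25 kPa. The gels did not overlap, and mean levels (± SD, n = 3) were 1.12 ± 0.38 CPM on 0.5 kPa, 3.22 ± 0.19 CPM on 4 kPa and 5.33 ± 0.05 CPM on 25 kPa. It fell by 2.25 on the log2 scale on 0.5 against 25 kPa (standard error 0.20, adjusted p = 7.1e-05 in edgeR) and by 1.53 against 4 kPa (standard error 0.21, adjusted p = 0.0024 in edgeR). Between 4 and 25 kPa its difference on the log2 scale was -0.73 (standard error 0.18, adjusted p = 0.078 in edgeR), which passed without replicate 3 of 0.5 kPa (adjusted p = 0.040 in edgeR) and in DESeq2 (adjusted p = 0.035). Windows of 50 bases shared with KRT14 made up 0.954% of the main KRT17 transcript. KRT34, a hair keratin with 4 to 33 reads per library, was just past the threshold on 0.5 against 25 kPa (log2 fold change -1.83, adjusted p = 0.0499 in edgeR) and lost the call without any one 0.5 or 25 kPa library or replicate 2 of 4 kPa (adjusted p up to 0.17), with RLE or upper-quartile scaling, with the replicate block, in limma and with transcript counts (0.0502 to 0.24). KRT86 and KRT6A were not called in any comparison, with 0.5 against 25 kPa log2 fold changes of -0.22 and 0.05.

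**Figure D5:**
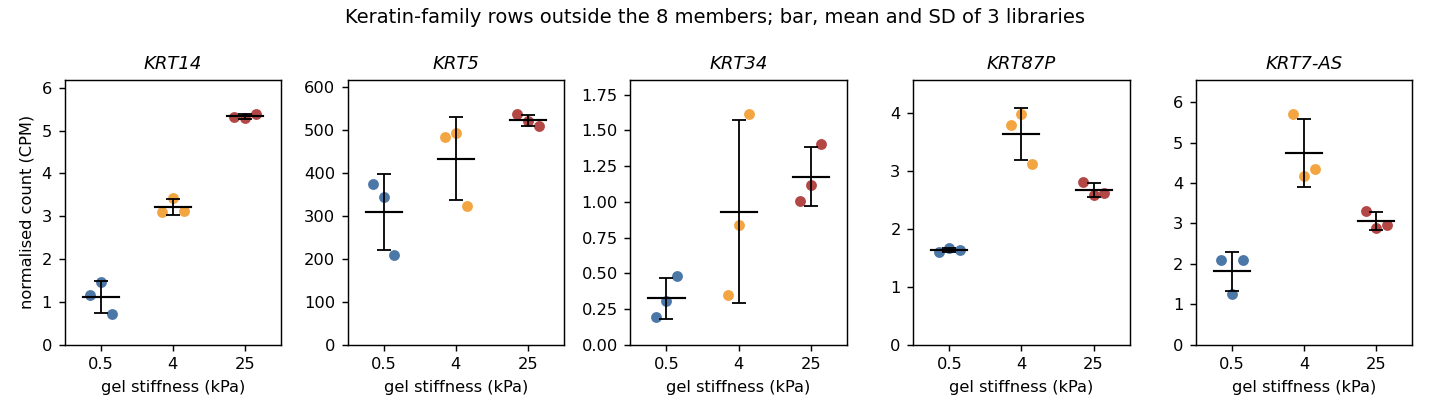
Normalised counts (CPM, y axis from 0) of 5 keratin-family rows outside the members against gel stiffness (x axis), with 1 point per library and a bar for the mean and SD of 3 libraries. KRT14 has a higher mean at each stiffness (1.12, 3.22 and 5.33 CPM), whereas KRT87P and KRT7-AS are highest on 4 kPa.

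Of 3 genes that overlap KRT7, the 2 with the fewest reads, KRT7-AS and KRT87P, were highest on 4 kPa. The other is KRT86, which shares 2887 bases with KRT7 on the same strand and had 141 to 245 reads. Its mean was also highest on 4 kPa (9.21 CPM, against 7.52 on 0.5 kPa and 8.76 on 25 kPa), but the gels overlapped. KRT7-AS, on the opposite strand within KRT7, had 43, 25 and 44 reads on 0.5 kPa, 114, 85 and 89 on 4 kPa and 66, 57 and 61 on 25 kPa, so that the 3 gels did not overlap. It was lower on 0.5 than on 4 kPa (log2 fold change -1.37, standard error 0.21, adjusted p = 0.0039 in edgeR). The pseudogene KRT87P, on the opposite strand at the end of KRT7, was lower on 0.5 kPa than on 4 kPa (log2 fold change -1.15, adjusted p = 0.0033 in edgeR) and than on 25 kPa (-0.71, adjusted p = 0.031 in edgeR), and the second call was lost without any one 0.5 or 25 kPa library (adjusted p up to 0.099), in DESeq2 (0.056), with the replicate block (0.17) and with transcript counts (0.19). Neither was called between 4 and 25 kPa, where adjusted p was 0.14 for KRT7-AS and 0.20 for KRT87P in edgeR. KRT7-AS held 0.442 to 1.17% and KRT87P 0.375 to 0.779% as many reads as KRT7, and reads of overlapping strands cannot be told apart here. The pseudogenes KRT8P12, KRT8P3 and KRT8P33 were not called in any comparison.

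Of 11 desmosome genes tested for 0.5 against 25 kPa, 1 was called higher and 1 lower (3% and 3.54% over all genes), with a median log2 fold change of -0.06 against -7.3e-06 over all genes. PKP4, a plakophilin-related armadillo protein, averaged 166 ± 11 CPM in 0.5 kPa libraries, against 123 ± 1.6 CPM in 25 kPa libraries (log2 fold change 0.43, standard error 0.07, adjusted p = 0.0033 in edgeR), and it was also higher on 0.5 than on 4 kPa (0.36, adjusted p = 0.017 in edgeR), a call lost without replicate 2 of 0.5 kPa or replicate 1 or 2 of 4 kPa (adjusted p up to 0.080). PKP3, a plakophilin of the desmosomal plaque, fell by 0.34 (standard error 0.09, adjusted p = 0.033 in edgeR), a call lost with upper-quartile scaling or without replicate 2 or 3 of 0.5 kPa, replicate 2 of 4 kPa or any 25 kPa library (adjusted p up to 0.14). DSP, the desmoplakin that binds keratin filaments directly, averaged 548 ± 42 CPM in 0.5 kPa libraries, against 498 ± 51 CPM in 25 kPa libraries and was not called.

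Of 9 hemidesmosome genes, 2 were called higher on 0.5 than on 25 kPa and 0 lower (3% and 3.54% over all genes), with a median log2 fold change of 0.16 against -7.3e-06 over all genes. ITGA6, the alpha chain of the laminin receptor of hemidesmosomes, averaged 269 ± 26 CPM in 0.5 kPa libraries, against 206 ± 12 CPM in 25 kPa libraries (log2 fold change 0.39, adjusted p = 0.020 in edgeR). COL17A1, a transmembrane collagen of the same structure, averaged 9.20 ± 0.49 CPM in 0.5 kPa libraries, against 6.07 ± 0.64 CPM in 25 kPa libraries (0.60, adjusted p = 0.016 in edgeR). The ITGA6 call was lost without replicate 2 or 3 of 0.5 kPa or replicate 2 or 4 of 25 kPa, and that of COL17A1 without replicate 1 or 2 of 0.5 kPa or replicate 4 of 25 kPa. PLEC, the plectin that links keratins to the hemidesmosome, had a log2 fold change of 0.22 and was not called. Against 4 kPa, 0 of the 9 genes were called (ITGA6 0.37, adjusted p = 0.050 in edgeR).

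Among genes whose products bind keratins, SFN, the 14-3-3 protein that binds KRT17, averaged 36.4 ± 9.1 CPM in 0.5 kPa libraries, against 58.0 ± 7.2 CPM in 25 kPa libraries (log2 fold change -0.67, standard error 0.15, adjusted p = 0.024 in edgeR). The call was lost without replicate 2 of 0.5 kPa or replicate 2 or 4 of 25 kPa (adjusted p up to 0.092).

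Other intermediate filament genes were not called in any comparison (0 of 9 tested). Over all genes, 3% were called higher and 3.54% lower on 0.5 against 25 kPa, with smaller shares in the other comparisons. A count of 0 among so few genes is near those shares. VIM, the vimentin of mesenchymal cells, was at 1683 ± 71 CPM on 0.5 kPa, 1714 ± 210 CPM on 4 kPa and 1932 ± 153 CPM on 25 kPa (log2 fold change of 0.5 over 25 kPa -0.20, adjusted p = 0.23 in edgeR). Of the 5 repressors of the epithelial program tested, 0 were called in any comparison, again near the shares over all genes. Of 22 transcription factors listed as regulators of keratin genes, 1 was called higher on 0.5 than on 25 kPa and 0 lower. Over all genes the shares were 3% and 3.54%. The gene called was FOS, a subunit of AP-1 (0.72, adjusted p = 0.0098 in edgeR). FOS and JUN were lower on 0.5 than on 4 kPa (-1.55 and -0.58, adjusted p = 4.9e-05 and 2.9e-04 in edgeR). In that comparison 0 of the 22 were higher (1.07% lower and 0.882% higher over all genes). FOS, JUN and JUNB were higher on 4 than on 25 kPa (2.28, 0.42 and 0.57, adjusted p = 3.4e-06, 0.011 and 0.041 in edgeR). Of these, FOS alone kept its call with each library left out in turn. Between those gels 0 of the 22 were lower (0.373% higher and 0.324% lower over all genes).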

How the data were processed

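RNA of SKOV-3 cells was sequenced after 3 days on 0.5, 4 or 25 kPa gels, with 3 libraries per gel. The labels name an NEBNext library kit, and the study's methods name a TruSeq library kit with NEBNext poly(A) selection. Per the labels, FastQC 0.11.5, HISAT2 2.1.0, bcl2fastq and the hg38 build were used. No source used here names the counting program, the strand setting or the annotation. Gene-level counts as deposited are whole numbers, and the authors also gave FPKM for the same genes, and estimated counts with FPKM per transcript. Each gene FPKM equaled its count over its library total and 1 fixed gene length (within 0.0135% over 6690 genes). The tables hold 3 columns of per-sample values that match no sample, and these were not used.

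The deposited counts were filtered with filterByExpr (16335 genes left), TMM-scaled and fitted over all 9 libraries by the default quasi-likelihood model of edgeR 4.0.16 (R 4.3.3). P-values were adjusted by the Benjamini-Hochberg method over all tested genes, and a gene was called at an adjusted p under 0.05. The test was tried on simulated counts. DESeq2 1.42.0 and limma 3.58.1 on log2(FPKM + 1) and log2(FPKM + 0.1), other scalings, filters, transcript counts and left-out libraries were alternatives. A robust quasi-likelihood fit was added after seeing the data: 8 combinations of edgeR options had been compared on these counts, and the default was kept because the written design names no other.

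The members and gene lists were chosen with earlier results of these data known. Named genes were the 8 members, keratin-family rows outside them that passed the filter, called genes of each list (up to 4 by adjusted p, or all where 5 or fewer), and for each member the 3 genes with the highest Pearson correlation. DSP, VIM and PLEC, and the overlapping TMEM99, were named after their values were seen. The summary of the list of keratin-binding genes, and 1 result in it, are not reported here.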

Additional observations from a re-analysis of the deposited data

How the results depend on the processing

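KRT17 was called lower on 0.5 kPa than on either other gel under every alternative run, with log2 fold changes of -2.27 to -1.78 against 25 kPa. With a fold of at least 2 also required, 2 members (KRT7 and KRT17) were called lower on 0.5 kPa against each other gel, and KRT80 was not. At the usual threshold, KRT7 and KRT80 lost their calls only with transcript counts summed per gene, where 1 member was called lower on 0.5 against 25 kPa and 1 on 0.5 against 4 kPa. With no count filter, 6 members were called lower on 0.5 against 25 kPa and 1 (KRT7) on 4 against 25 kPa. Leaving out single libraries gave 3 to 5 members lower on 0.5 against 25 kPa (5 without replicate 3 of 4 kPa, with KRT8 and KRT81 added) and 0 to 1 higher (KRT10, without replicate 3 of 0.5 kPa). Without both replicate 3 libraries, 1 member (KRT10) was called higher on 0.5 kPa against each other gel, KRT81 joined those lower on 0.5 against 25 kPa, and 1 (KRT7) was lower on 4 against 25 kPa. The robust quasi-likelihood fit, added after seeing the data, gave the same member counts but ended the KRT5 call (adjusted p = 0.077 in edgeR). Of 552 log2 fold changes of members under alternatives, 523 were within 1 standard error of the reported value and 0 of those called turned in sign. The cause of these changes was not tested.

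Deviations of same-numbered libraries of different gels correlated at -0.23 to 0.14, and those of libraries with unlike numbers at -0.23 to 0.23. For 0.5 with 4 kPa the same-numbered values were -0.0096, 0.14 and 0.14 for replicates 1, 2 and 3. The 25 kPa libraries are numbered 2 to 4, so equal numbers need not mark the same batch, and a batch shared between gels was not tested. With the replicate block, 3 members were still lower on 0.5 against 25 kPa and 3 on 0.5 against 4 kPa, while over all genes 95 higher and 106 lower were called on 0.5 against 25 kPa, against 490 and 578 without it, and 594 and 421 with upper-quartile scaling. The type I over type II ratio of the members was 0.336, 0.241 and 0.232 on 0.5, 4 and 25 kPa from counts. From transcript sums it was 0.573, 0.451 and 0.444. KRT8 over KRT18 was 2.70, 3.23 and 3.33 from counts and 2.03, 3.05 and 2.25 from transcript sums. Depth limits KRT14, KRT34, KRT7-AS and KRT87P, which rest on 4 to 114 reads per library.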
